A study of Mus musculus with 4 samples.

Results

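Of 21951 protein-coding mouse genes, 71 encode a kinesin, a cytoplasmic dynein subunit or an unconventional myosin by name: 39 have a symbol of Kif and a digit, 7 a symbol that starts with Dync, and 25 a symbol of Myo and a digit. The 39 include Kif1bp, which encodes a kinesin-binding protein rather than a motor. Of the 71 genes, 34 had at least 1 peak that the authors gave to the gene and did not mark as antisense, 27 had one in each of the 2 IGF2BP2 immunoprecipitates (17.0% of all protein-coding genes did), and 37 had none. Of the 27, Kif24 had its replicate 2 peak on the strand opposite the gene, and 26 remained by the gene span on the same strand. The study immunoprecipitated IGF2BP2, which binds RNA and is known to read the m6A mark, from mouse bone-marrow-derived macrophages (BMDMs) and sequenced the attached RNA. Its 4 libraries are 2 immunoprecipitates (IGF2BP2_IP, replicates 1 and 2) and 2 inputs. The labels give no strain, age, genotype or treatment, and nothing in them ties the replicates to separate cultures or animals. Different antibodies appear in them: an IGF2BP2 antibody in the characteristics and a Flag antibody in the protocol.

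Kinesins and cytoplasmic dynein are motor proteins that walk along microtubules and carry organelles, vesicles and mRNA, most kinesins towards the cell periphery and dynein towards the cell centre. Unconventional myosins move on actin filaments or tether membranes to them. In macrophages these motors are known for moving lysosomes and phagosomes and for shaping the actin cortex during migration and engulfment.

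Each library came as a list of peaks, stretches of the genome where sequenced tags pile up, with 15511 peaks and 189393 tags in replicate 1 and 22570 peaks and 324456 tags in replicate 2. Tags are raw counts, the smallest peak held 3, and the total depth of the libraries is unknown, so counts of the libraries are not on one scale, and a ratio between them is read only beside the same ratio over all genes. No input or expression value was used. A gene without a peak may therefore be unbound, weakly expressed or absent, and these cannot be told apart. The smallest peak also differed between genes, in replicate 2 from 3 tags in Dync2h1 to 20 in Myo1f. The lowest count at which a peak was called in a given gene is not known. Of 8 macrophage markers, 6 had a peak in each library, among them Csf1r with 932 and 1421 tags and Mrc1 with 1030 and 1880 tags. Lyz2 had no peak and Cd68 had peaks in replicate 2 only. No marker on the lists for neutrophils, T cells, B cells, dendritic cells, stroma or erythroid cells had a peak in each library. The largest sums for these lists were 9 tags in replicate 1, from Col1a2, and 10 tags in replicate 2, from Mpo.

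Motor genes had peaks more often than protein-coding genes as a whole. In replicate 1, 28 of 71 had a peak (39.4%, exact binomial 95% interval 28.0 to 51.7%) against 22.0% of all protein-coding genes. In replicate 2, 33 had a peak (46.5%, 34.5 to 58.7%) against 26.7%. In each library, 27 had a peak (38.0%, 26.8 to 50.3%) against 17.0%. A peak at an overlapping position in the libraries, by at least 1 base on the same strand, was found in 15 (21.1%, 12.3 to 32.4%) against 9.07%. Intervals here and below cover counting error only, and no test was run on a list of genes chosen with results of these data known. The shares of 17.0% and 9.07% also stand behind each family and list count below.

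The length of the mRNA moved with these counts. The median representative mRNA of the 71 motor genes was 5354 nt, against 2568 nt for all protein-coding genes, and their median genomic span was 63.1 kb against 17.4 kb. Among the 2826 protein-coding genes with an mRNA of at least 5354 nt, 34.7% had a peak in each library, and 18 of the 36 motor genes of that length did, a share whose interval, 32.9 to 67.1%, includes 34.7%. An overlapping peak was found in 10 of the 36 (27.8%, 14.2 to 45.2%) against 18.0%. Of the 34 motor genes with any peak, 27 had peaks in each library (79.4%, 62.1 to 91.3%), against 53.8% of all genes with any peak. The 27 had a median mRNA of 6032 nt and the 37 without a peak one of 5082 nt. Over all genes those medians were 3756 and 2206 nt.

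The tags were concentrated in a few genes. Motor genes held 142 peaks with 2206 tags in replicate 1 and 212 peaks with 3928 tags in replicate 2, or 1.16% and 1.21% of all tags in peaks. The same 6 genes held most of them in both lists: Myo1e, Dync1h1, Myo1f, Myo5a, Myo9b and Kif1c carried 83.1% of the motor tags in replicate 1 and 78.3% in replicate 2. They also held 52 of the 70 positions where motor peaks of the libraries overlapped. Myosins accounted for 67.3% and 62.4% of the motor tags, dyneins for 19.5% and 20.6%, and kinesins for 13.2% and 17.0%. The median motor peak had 12 and 14 tags, against 8 and 9 for peaks of all protein-coding genes, at similar lengths of 195 and 206 nt against 196 and 216 nt. In each motor gene with peaks in both libraries, the tag total of replicate 2 was set against that of replicate 1: it was higher in 21, lower in Kif1bp, Kif23, Myo1c and Myo9a, and equal in Dync2h1 and Kif3b. The median ratio was 1.83, and 1.62 over all genes with peaks in both libraries.

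**Figure D1:**
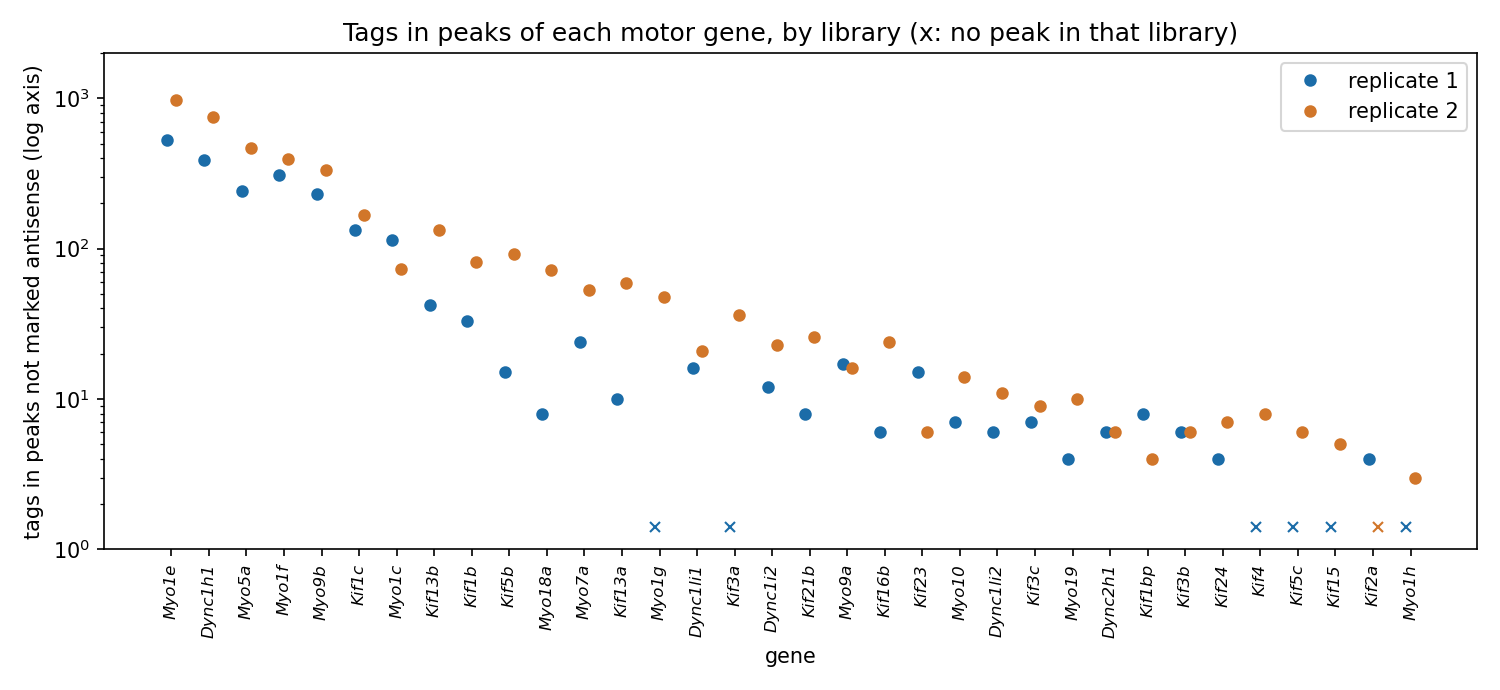
Tags in peaks not marked antisense (log axis) for the 34 motor genes with any peak, ordered by their tags, with 1 point per library and a cross where a library had no peak. Myo1e is highest in each library with 529 and 970 tags, and the 7 genes with a cross hold 3 to 48 tags in the other library.

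Among the dynein genes, 5 of 7 had a peak in each library and 3 an overlapping one. Dync1h1 encodes the heavy chain of cytoplasmic dynein 1, the subunit that contains the ATPase ring and binds the microtubule. It lies on the plus strand at chr12:110601452-110666945 (GRCm38) and was covered by 19 peaks with 390 tags in replicate 1 and 26 peaks with 748 tags in replicate 2. By exonic tags, 16 protein-coding genes (Dync1h1 included) held at least as many in replicate 1 and 13 in replicate 2. Its mRNA, at 14342 nt, is the longest among the motor genes with a peak in each library, and per kilobase of mRNA its exonic peaks held 26.5 and 44.6 tags, below Myo1f with 66.8 and 56.1. Peaks touched 21 and 27 of its 77 exons, 15 of these in both libraries. Overlapping peaks lay at 14 positions. In replicate 1, 12 of them had a midpoint on exons 8, 11, 19, 20, 26, 32, 33, 34, 35, 50, 51 and 72. The other 2 had that midpoint in an intron, but their overlap lay mainly or wholly in coding sequence. The pair at chr12:110649215-110649676 was mainly coding in each library. The last pair overlapped in exon 58, which the replicate 2 peak covered exactly. The strongest stretch was exons 32 and 33, near the middle of the coding sequence. The peak of exon 32 had 45 and 66 tags, and that of exon 33 had 50 in each library at codon 2244 of 4644.

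Several of these peaks began and ended exactly at exon boundaries in both lists. The sequences of the 8 such peaks in Dync1h1, Kif1c and Myo5a are shown because both lists gave the same first and last base. Over all genes, 96.6% of overlapping pairs with the same ends were also exactly 1 exon. Kif5b exon 12 had such a peak as well and is not printed. Dync1h1 exon 19 had 17 tags in replicate 1 and 21 in replicate 2, and exon 20 had 27 and 39. Kif1c exon 17 had 15 and 12 tags, and exon 20 had 17 and 22. Myo5a exon 8 had 11 and 14 tags, exon 24 had 20 and 18, and exon 27 had 15 and 20. Letters come from GENCODE release 21 transcripts, 5′ to 3′, with each GGAC, a consensus form of the m6A site, in capitals. The Dync1h1 peaks over exons 20 and 33 hold 2 GGAC each and that over exon 19 holds 0, the Kif1c peaks hold 1 and 2, and the Myo5a peaks 0.
Dync1h1 exon 19, chr12:110628724-110628834, plus strand: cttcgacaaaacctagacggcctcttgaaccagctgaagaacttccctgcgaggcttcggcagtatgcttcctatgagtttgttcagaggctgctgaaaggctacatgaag
Dync1h1 exon 20, chr12:110628908-110629117, plus strand: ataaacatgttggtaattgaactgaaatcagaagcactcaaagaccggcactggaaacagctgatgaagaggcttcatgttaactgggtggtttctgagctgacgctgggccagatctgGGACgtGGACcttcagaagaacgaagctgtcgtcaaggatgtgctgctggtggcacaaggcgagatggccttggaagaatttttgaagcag
Dync1h1 exon 33, chr12:110637106-110637344, plus strand: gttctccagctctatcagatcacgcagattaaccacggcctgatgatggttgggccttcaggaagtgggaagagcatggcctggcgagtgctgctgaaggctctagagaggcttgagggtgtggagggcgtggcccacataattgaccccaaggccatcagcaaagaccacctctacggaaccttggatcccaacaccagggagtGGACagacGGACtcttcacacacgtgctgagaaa
Kif1c exon 17, chr11:70717419-70717498, plus strand: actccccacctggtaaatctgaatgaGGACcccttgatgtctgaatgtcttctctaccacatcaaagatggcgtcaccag
Kif1c exon 20, chr11:70724822-70725008, plus strand: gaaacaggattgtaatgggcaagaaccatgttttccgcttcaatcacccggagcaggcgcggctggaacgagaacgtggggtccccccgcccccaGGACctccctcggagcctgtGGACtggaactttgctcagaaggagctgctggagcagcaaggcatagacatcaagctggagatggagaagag
Myo5a exon 8, chr9:75141435-75141542, plus strand: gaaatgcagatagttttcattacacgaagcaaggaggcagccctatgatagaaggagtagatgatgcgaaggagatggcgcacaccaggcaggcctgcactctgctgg
Myo5a exon 24, chr9:75180024-75180172, plus strand: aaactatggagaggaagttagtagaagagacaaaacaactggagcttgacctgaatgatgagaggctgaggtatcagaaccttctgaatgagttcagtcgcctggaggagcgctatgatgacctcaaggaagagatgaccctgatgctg
Myo5a exon 27, chr9:75184638-75184691, plus strand: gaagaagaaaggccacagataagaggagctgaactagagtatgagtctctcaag

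The other dynein genes had few tags. Dync1i2, an intermediate chain that links the heavy chain to dynactin and cargo, had overlapping peaks over exons 15 and 16 of 16, at codons 561 and 597 of 612, with 6 and 6 tags in replicate 1 and 9 and 7 in replicate 2. Dync1li2, a light intermediate chain that binds cargo adaptors, had 1 overlapping 3′ UTR peak with 6 and 11 tags. Its paralogue Dync1li1 had 3 peaks in each library, with 16 and 21 tags, and none overlapped. Dync2h1, the heavy chain of the dynein that works inside cilia, had 6 tags in each library at different exons. Dync1i1 and Dync2li1 had no peak. Of the 20 genes listed for dynactin and dynein adaptors, 7 had a peak in each library (17.0% of protein-coding genes did) and 2 an overlapping one, a share close to the 9.07% of protein-coding genes: Dctn1, the largest dynactin subunit, with 19 and 51 tags, and Ndel1, a dynein regulator, with 34 and 6. Of 6 dynein light chain genes, 2 had a peak in each library, Dynll2 with 6 and 8 tags and Dynlrb1 with 4 and 10. Of 15 axonemal dynein heavy chains, which beat cilia and flagella, 1 had a peak in each library, Dnah17 with 6 and 12 tags.

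Among the myosins, 10 of 25 had a peak in each library and 6 an overlapping one, against 17.0% and 9.07% of all protein-coding genes and 34.7% and 18.0% of those with long mRNAs. The class I myosins, single-headed motors that link actin to membranes, held 951 and 1489 tags. Myo1f is a class I myosin of leukocytes at chr17:33555707-33607764, with 13 peaks and 308 tags in replicate 1 and 10 peaks and 395 tags in replicate 2. It had the most exonic tags per kilobase of any motor gene in each library. Its peaks touched 12 and 14 of 28 exons, 8 in both. Replicate 2 often merged what replicate 1 split: a peak of 72 tags at chr17:33579702-33580293 overlapped 2 peaks of 27 and 38 tags over exons 7 and 8, and the peaks at exons 18 and 19, and at 26 and 27, paired in the same way. The remaining overlaps were over exons 16 and 17, and the replicate 1 peak at exon 16 ran on into intron 16.

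Myo1c, a widely expressed class I myosin, had no mainly intronic peak, though some of its peaks reached into an intron. It had 9 peaks with 114 tags in replicate 1 and 6 peaks with 73 tags in replicate 2. It overlapped at 4 positions, over exons 6, 7, 16 and 25. Tags there were 15 and 16, 11 and 14, 26 and 9, and 11 and 9 in turn. The peak of 26 tags also covered intron 15. Myo1g, a class I myosin of blood cells, had no peak in replicate 1 and 3 peaks with 48 tags in replicate 2, the strongest of 25 tags over exon 8. Of the motor genes with a peak in replicate 2 only, Myo1g had the most tags. Myo1h had 1 peak of 3 tags, and Myo1a and Myo1d had none.

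Myo1e stood apart from the other motor genes in where its peaks lay. It encodes a class I myosin with a long tail, known in macrophages from podosomes and phagocytic cups, and spans chr9:70207350-70399766. Of its 20 peaks in replicate 1 and 26 in replicate 2, 19 and 24 were mainly intronic, holding 496 of 529 and 911 of 970 tags. Counting Myo1e itself, 12 protein-coding genes held at least as many intronic tags in replicate 1 and 17 in replicate 2. Intron 1, of 79.2 kb at chr9:70207704-70286911, carried 15 and 16 peaks with 379 and 612 tags. Of these, 7 in each library overlapped a peak of the other, and further overlaps fell in intron 7, with 46 and 80 tags, and intron 22, with 19 and 51. The Myo1e peaks were long, with a median of 402 and 495 nt against 195 and 206 nt over all motor peaks. Exonic peaks numbered 1 and 2, at exon 10 in replicate 1 and exons 21 and 28 in replicate 2, and none overlapped. No exon of another gene on that strand lay under a Myo1e peak.

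**Figure D2:**
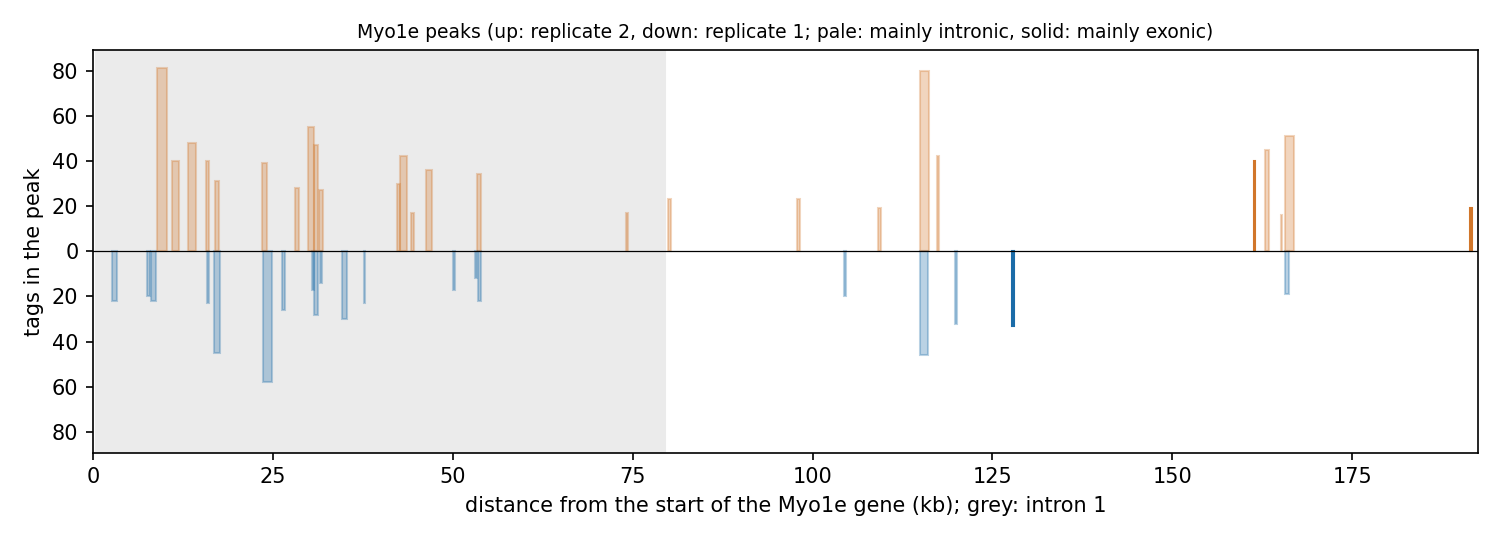
Tags of each Myo1e peak against its distance from the start of the gene in kilobases, replicate 2 above the axis and replicate 1 below, with bars as wide as the peaks. The grey area is intron 1, which holds 15 peaks of replicate 1 and 16 of replicate 2; solid bars mark the 1 and 2 mainly exonic peaks.

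**Figure D3:**
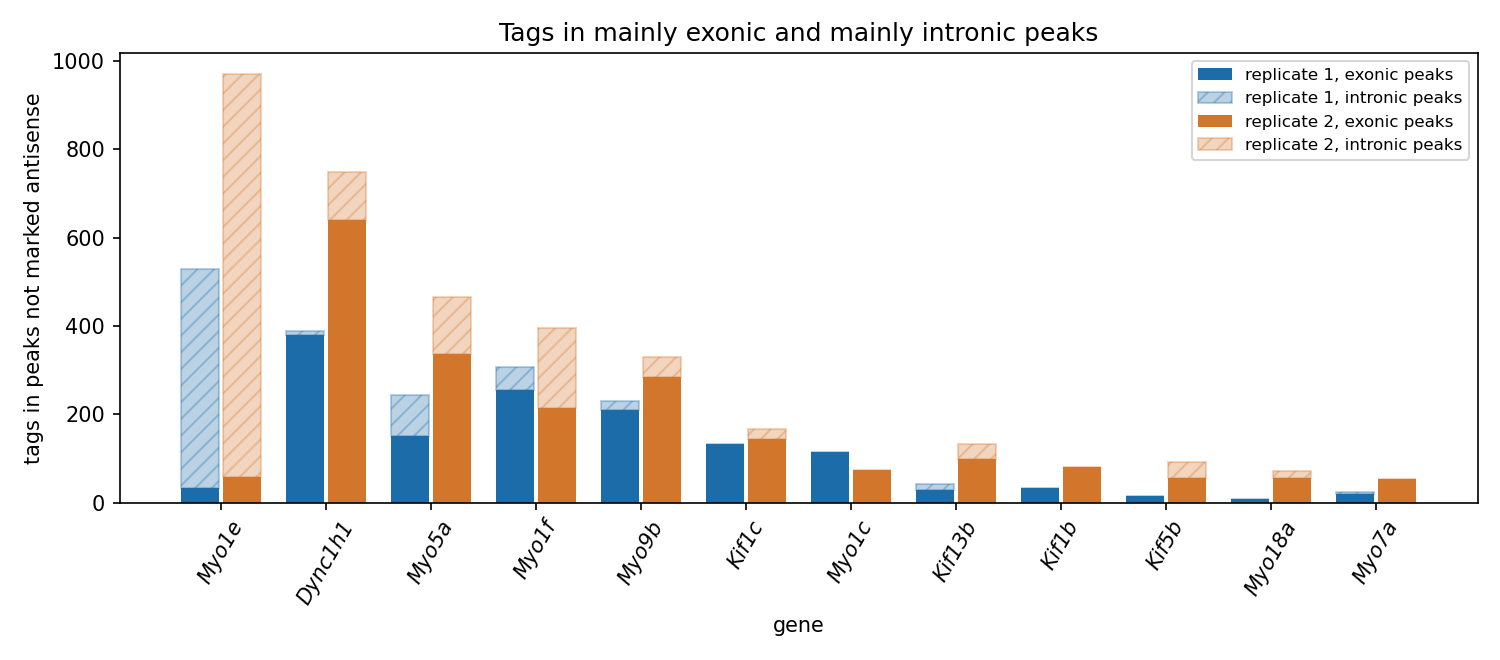
Tags in mainly exonic peaks (solid) and mainly intronic peaks (pale, hatched) for the 12 motor genes with most tags and peaks in both libraries, replicate 1 on the left of each pair. The intronic part is larger than the exonic part in both libraries for Myo1e, with 496 and 911 intronic tags, while Dync1h1 has 10 and 108.

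Myo5a, a processive motor known for carrying melanosomes and endoplasmic reticulum along actin, lies at chr9:75071015-75223688. It had 18 peaks with 243 tags in replicate 1 and 24 with 465 in replicate 2, touching 13 and 19 of 41 exons. Overlapping peaks lay at 12 positions, and 27 protein-coding genes, Myo5a included, had at least as many. Of these positions, 7 fell between exons 19 and 28 (exons 19, 22, 23, 24, 26, 27 and 28), and the strongest of them was over exon 26 in replicate 1, with 22 and 23 tags, and over exon 28 in replicate 2, with 16 and 48. The remaining ones were exons 2, 8 and 9, and 2 in intron 1, which is 44.5 kb long and held 42 and 91 tags. The replicate 1 peaks at exons 2, 9 and 26 extended into intron and were mainly intronic. The close relatives Myo5b and Myo5c had no peak.

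Myo9b, which also inactivates the GTPase RhoA through a domain in its tail, had 15 peaks with 230 tags and 16 with 331, and 9 overlapping positions. Those over exons 18, 19, 20 and 21 formed a run, with 10, 18, 22 and 15 tags in replicate 1 and 27, 33, 11 and 29 in replicate 2. The others were exons 2, 33, 36 and 37, and the 3′ UTR with 20 and 23 tags. Its strongest replicate 1 peak, of 39 tags, had no counterpart. Its relative Myo9a had 17 and 16 tags at unshared positions. Myo7a, a motor of phagosomes and of sensory hair cells, had 24 and 53 tags and overlaps over exons 22 and 32, with 4 and 11 and with 8 and 8 tags.

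Other myosins had peaks in each library that did not overlap: Myo18a with 8 and 72 tags, Myo10, a motor of filopodium tips, with 7 and 14, and Myo19, a mitochondrial myosin, with 4 and 10. Myo6, the myosin that walks towards the pointed end of actin, had no sense peak, nor did Myo3a, Myo3b, Myo7b, Myo15, Myo15b, Myo16 and Myo18b. On the list of conventional nonmuscle myosin and its regulators, 3 of 11 gene identifiers had a peak in each library. Its heavy chain Myh9, with 592 and 778 tags, exceeded every motor gene in replicate 1 and was below Myo1e in replicate 2.

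Among the kinesins, 12 of 39 had a peak in each library and 6 an overlapping one, against 17.0% and 9.07% of all protein-coding genes and 34.7% and 18.0% of those with long mRNAs. The 12 include Kif1bp and Kif24, and 4 of the 6 were kinesin-3 genes, which carry vesicles and endosomes. The 8 kinesin-3 genes held 225 of the 292 kinesin tags in replicate 1 and 464 of 669 in replicate 2. Kif1c, at chr11:70700548-70731964, had 5 peaks with 134 tags and 10 with 168. Its largest peak, of 68 tags in replicate 1 at chr11:70708442-70709035 over exons 14 to 16, was the strongest motor peak of that library, and replicate 2 had 3 separate peaks there with 10, 24 and 25 tags. The other overlaps were exons 17 and 20, whose sequences are given above. Kif13b, a kinesin of vesicle transport, had 42 and 132 tags. Its overlaps lay over exons 9, 25 and 33 and across the boundary of intron 11 with exon 12. They had 6 to 8 tags in replicate 1 and 9 to 15 in replicate 2. Kif1b, a carrier of mitochondria and synaptic vesicle precursors, had 33 and 81 tags and overlaps over exon 23, with 8 and 14 tags, and in a coding stretch within intron 20 of the representative transcript, with 6 in each. The strongest Kif1b peak, of 29 tags in the 3′ UTR, was in replicate 2 only. Kif13a had 10 and 59 tags and 1 overlap, over exon 12 with 5 and 13. Kif16b, a motor of early endosomes, had 6 and 24 tags and no overlap. Kif1a, the neuronal relative, and Kif28 had no peak.

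Kif5b, the ubiquitous kinesin-1 heavy chain, had 2 peaks with 15 tags and 9 with 92, and 1 shared peak with the same ends in each library, over exon 12 with 9 and 10 tags. The neuronal kinesin-1 gene Kif5a had no peak and Kif5c had 6 tags in replicate 2 only. Of the kinesin-2 motors, which also work in cilia, Kif3b had 6 tags in each library and Kif3c 7 and 9, at unshared positions. Their partner Kif3a had 36 tags in replicate 2 only, and Kif17 had none. A list of 15 genes held kinesin light chains, adaptors and related partners, and the kinesins Kifc1, Kifc2 and Kifc3, which the symbol rule leaves out. Of the 15, 8 had a peak in each library (53.3%, against 17.0% of protein-coding genes) and 7 an overlapping one (against 9.07%). Kifc1 and Kifc2 had no peak, and Kifc3 had 4 tags in replicate 1 only. Klc1, the light chain that binds kinesin-1 to cargo, had 78 and 344 tags, Plekhm1 49 and 152, Plekhm2, which links lysosomes to kinesin-1, 15 and 65, and Trak1, a mitochondrial adaptor, 56 and 49.

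Of 11 kinesins that act in mitosis, 1 had a peak in each library and none an overlapping one. Kif23, a kinesin of the cytokinetic midzone, had 15 and 6 tags. Kif4, a chromosome-associated kinesin, had 8 tags and Kif15, a spindle motor, 5, each in replicate 2 only. Kif11, Kif14, Kif18a, Kif18b, Kif20a, Kif20b, Kif22 and Kif2c had no sense peak. By comparison, 11 of the 28 other kinesin symbols had a peak in each library, Kif1bp and Kif24 included. That share was 17.0% over all protein-coding genes and 34.7% over those with long mRNAs. The difference between the kinesin groups was not tested. On a list of 12 proliferation genes, 3 had a peak in each library: Top2a with 19 and 33 tags, Mki67 with 14 and 26, and Cdk1 with 4 and 6.

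Of the remaining kinesins, Kif21b had 8 and 26 tags with 1 overlap in the 3′ UTR, with 8 and 5 tags, and Kif2a, a microtubule depolymerase, had 4 tags in replicate 1 only. Kif1bp had 8 and 4 tags at unshared positions. Kif24 was counted in both libraries, with 4 and 7 tags, but its replicate 2 peak lay on the opposite strand, had 5% of its length in the region named by the authors and covered an exon of the neighbouring gene Ubap1. It was the 1 motor peak of 354 on the strand opposite its gene. Kif12, Kif19a, Kif21a, Kif26a, Kif26b, Kif27, Kif2b, Kif6, Kif7 and Kif9 had no peak.

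Motor peaks lay mainly in coding sequence. By the region that covers most of a peak in the authors' annotation, 63.4% of the 142 motor peaks of replicate 1 (54.9 to 71.3%) and 64.6% of the 212 of replicate 2 (57.8 to 71.0%) were coding, against 47.5% and 45.1% of the peaks of all protein-coding genes. Introns took 28.2% and 30.2% against 37.2% and 40.3%, and 3′ UTRs 7.75% and 5.19% against 12.6% and 11.9%. The 5′ UTR held 1 motor peak in replicate 1 and 0 in replicate 2. Peaks of 1 gene are not independent, and the 6 leading genes held 90 and 112 of these peaks. When Myo1e was left out, an alternative added once the values were known, the coding share was 73.0% and 73.1% and the intronic share 17.2% and 21.5%. Dynein peaks were coding in 84.6% and 82.9% of cases, kinesin peaks in 73.3% and 64.3%, and myosin peaks in 53.5% and 58.9%, or 68.2% and 76.5% without Myo1e.

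Coding motor peaks tended to stop at exon boundaries. At least 1 end coincided with an exon edge in 81 of 90 coding peaks of replicate 1 (90.0%) and 122 of 137 of replicate 2 (89.1%), against 80.1% and 80.3% over all protein-coding genes. A peak was exactly 1 exon in 40.0% and 48.2%, against 34.0% and 35.6%. Of the 75 overlapping pairs of motor peaks, 41 shared an end (54.7%, against 41.9% of 5064 pairs over all genes). In all 41 the common end was an exon edge, as it was in 95.1% of such pairs over all genes. Both ends were the same in 10 pairs (13.3%, against 11.1%). Of these, 9 were exactly 1 exon (90.0%, against 96.6% over all genes). The exception was a Dync1h1 peak at chr12:110649215-110649676, with 40 and 48 tags.

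Along the coding sequence, the middle of 3 equal parts held the largest share of motor peaks. Of the coding peaks that could be placed on the representative transcript, the midpoint was there for 42.4% of 85 in replicate 1 and for 49.6% of 133 in replicate 2, against 36.6% and 36.1% over all genes. The share nearest the start codon differed between the libraries, at 32.9% and 19.5%, against 34.9% and 35.0%. No interval was computed for these shares, peaks of 1 gene are not independent, and the differences were not tested.

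**Figure D4:**
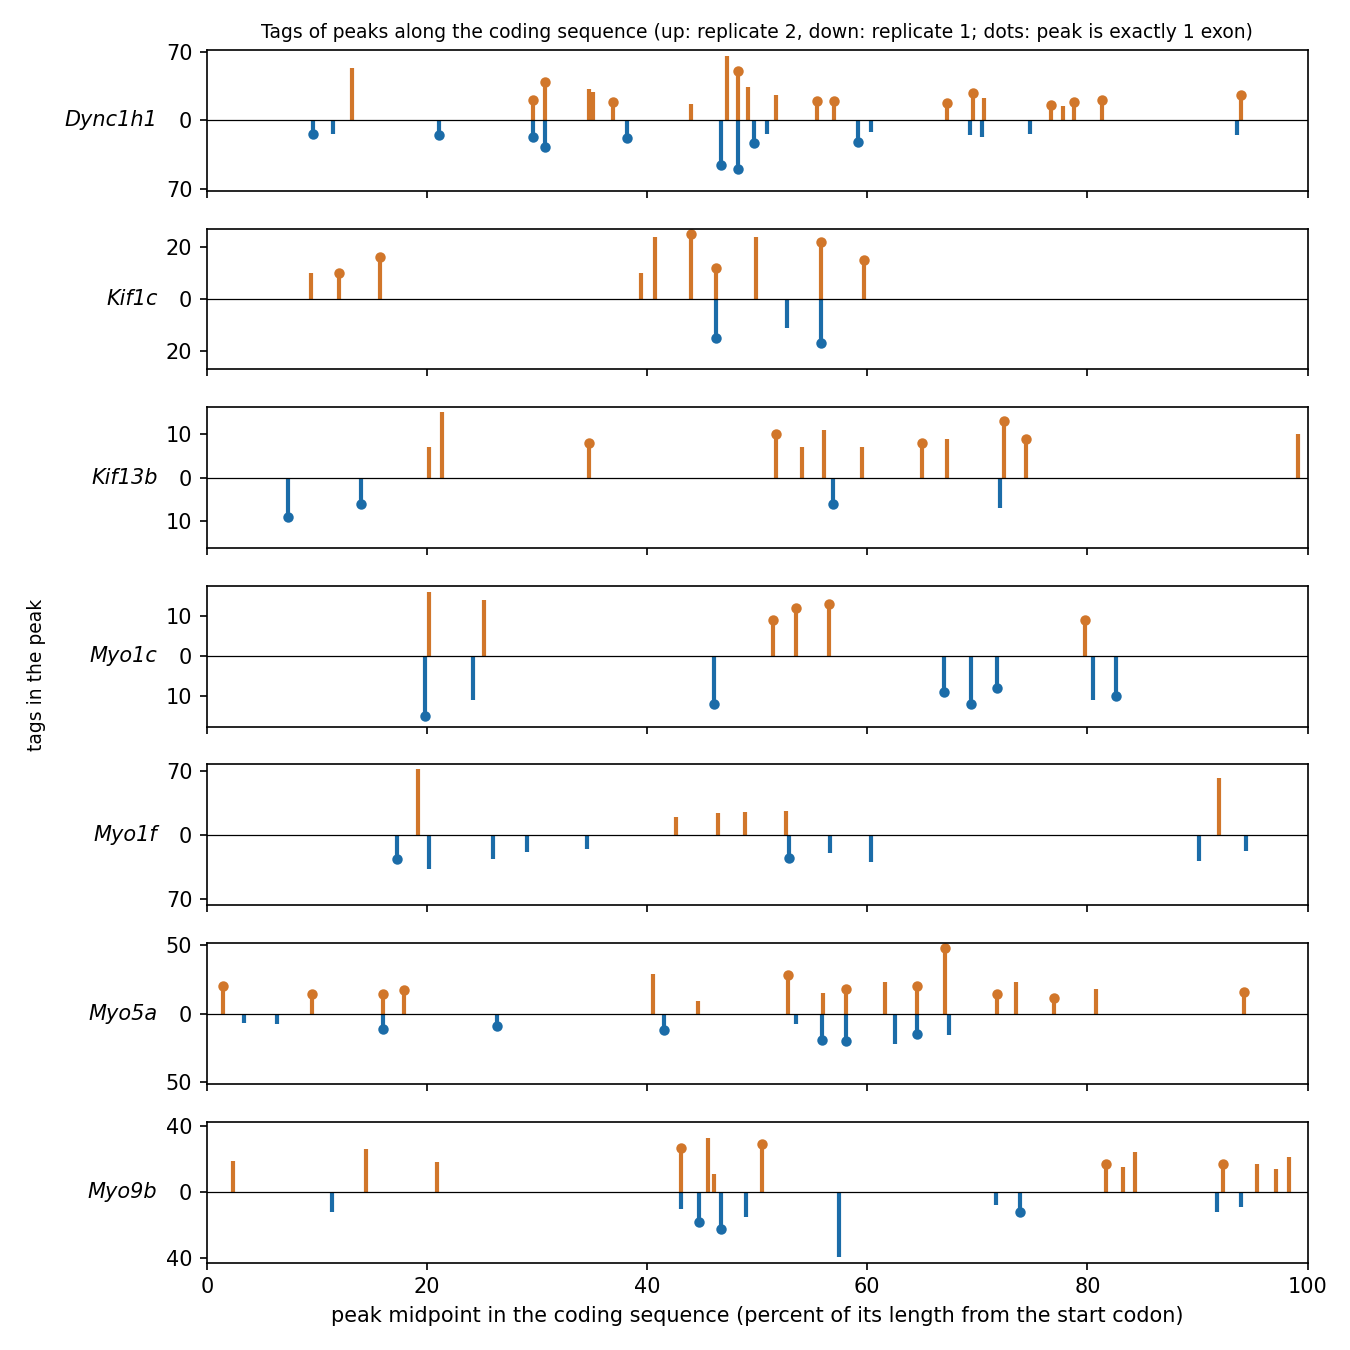
Tags of peaks with a midpoint in coding sequence in 7 motor genes, against that midpoint in percent of the coding sequence from the start codon. Replicate 2 is above each axis and replicate 1 below, with dots on peaks that are exactly 1 exon. Peaks spread along Dync1h1, the tallest near the middle, at exon 33 with 50 tags in replicate 1 and exon 32 with 66 in replicate 2. Some mainly intronic peaks are drawn, and mainly coding peaks whose midpoint falls in an intron are not.

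GGAC was no more frequent in motor peaks than in peaks of all genes. It was sought on the transcript strand in exonic peaks lying within 1 exon, and was present in 33 of 70 motor peaks of replicate 1 (47.1%, 35.1 to 59.4%) and 42 of 99 of replicate 2 (42.4%, 32.5 to 52.8%), against 51.9% and 51.6% over all genes. The motor peaks searched were shorter, with a median of 132 and 126 nt against 146 and 151 nt. Per kilobase they held 4.68 and 4.42 GGAC against 4.85 and 4.71. ACACA, a CA-rich motif of the kind described for IGF2BP proteins, was present in 8.57% and 11.1% of motor peaks against 12.9% and 14.0%. Such matches describe the letters under the peaks and do not show a methylated or bound site.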

How the data were processed

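The measured RNA came from 2 IGF2BP2 immunoprecipitates of macrophages; 2 inputs were not analysed here. Sample titles gave the groups and replicate numbers. The submitters' processing notes name bcl2fastq, TopHat2 and the build GRCm38, while the peak caller, its threshold and any role of the inputs in it were not given in the sources used here. The authors deposited, per the file headers, a raw tag count and a maximum height for each peak; the height is a coverage signal. Length, region shares and the gene identifier stand beside them.

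Deposited starts count from 0: among 33104 sense peaks, 9595 starts met an exon start of their gene only after 1 was added, against 67 without it, while 9663 ends met an exon end as given. Starts were therefore moved by 1 base, and lengths computed anew. A gene's peaks are those the authors gave its identifier, without antisense and intergenic ones. GENCODE release 21 for mouse supplied genes and, for each, 1 representative transcript (complete, principal, longest coding sequence). It matched 5249 of 5263 and 6404 of 6426 identifiers. A shared position needed an overlap of 1 base or more on the same strand. Intervals given for shares are exact binomial (Clopper-Pearson) 95% intervals. They cover counting error only, since they treat genes or peaks as independent and hold no variation between cultures. No molecular identifiers mark PCR copies among the tags. Python 3.11.15, numpy 2.4.6, pandas 2.3.3 and scipy 1.17.1 were used, and the overlap step was tested on simulated data.

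The genes and lists were chosen with earlier results of these data known. Named genes are every gene with an overlapping peak, the 10 highest by mean rank of their strongest peak, the others by family, and up to 4 per list, ranked alike; Myl12b matched 2 identifiers. Alternatives were a stricter list (the stronger 50% of peaks by tags), exonic peaks, the gene span, other backgrounds, other overlaps, other region and motif settings, and each library alone.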

Additional observations from a re-analysis of the deposited data

Results flagged for a closer look

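Peaks that the authors marked antisense were left out of the counts, and 5 motor genes had such peaks. They are listed here where they exceed the 3 tags of the smallest deposited peak. Myo1f had an antisense peak in each library, at chr17:33557451-33557653 with 6 tags in replicate 1 and at chr17:33557467-33557665 with 9 tags in replicate 2, both on the minus strand. Myo1e had 1 of 4 tags in replicate 1 at chr9:70361930-70362072. Kif22, which had no sense peak, had 1 of 4 tags in replicate 2 at chr7:127032324-127032592. Kif24 had 2 of 4 tags each in replicate 2, at chr4:41399804-41400059 and chr4:41406007-41406179. The fifth gene, Myo6, had 1 antisense peak of 3 tags. Whether the libraries keep strand is not stated in the labels.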

How the results depend on the processing

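Of 28 alternative values over 10 results, 21 stayed close to the value reported (counts within 1.5 times of it, shares and the ratio inside its 95% interval), and 7 moved. In the stronger 50% of each list, 14 motor genes had a peak in each library in place of 27. The ratio of the motor share to the background was 2.23 (1.57 to 2.95) over all protein-coding genes, 1.44 (0.949 to 1.93) over mRNAs at least as long as the motor median and 1.48 (1.15 to 1.70) over genes with any peak. Leaving out Myo1e, chosen after seeing the data, moved the coding share from 63.4% to 73.0% in replicate 1 and from 64.6% to 73.1% in replicate 2, and the intronic share from 28.2% to 17.2% and from 30.2% to 21.5%. Without replicate 1, 33 genes had a peak, and without replicate 2, 28. With exonic peaks alone 23 had one in each library, without Kif16b, Kif24, Kif3c and Myo10, and by the gene span on the same strand 26, without Kif24. The count of genes with an overlapping peak ranged from 11 to 15. The positions of peaks along the coding sequence were computed in 1 way only. No paired analysis was possible because no result comes from a test, and the files used here hold values of the immunoprecipitates alone. Unknown library depth, a floor of 3 tags over each list and the absence of an expression measure limit what a missing peak shows. The smallest peak was larger in some genes, with 12 and 16 tags in Myo1e and 14 and 20 in Myo1f. With 2 libraries there is no estimate of variation between cultures.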
